A study of Rattus norvegicus with 6 samples.

Results

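The p53 target and senescence genes described here are 9 genes, taken from the deposited count table by symbol: the CDK inhibitor genes Cdkn1a, Cdkn2a and Cdkn2b, the p53 inhibitor gene Mdm2, the kinase gene Plk2, the cyclin gene Ccng1, the cell death genes Bbc3 and Bax, and the RNA-binding protein gene Zmat3. All 9 were found among the 22835 genes of the table. The libraries are whole-lung RNA of female rats on the SD background, 12 weeks of age, with 3 rats per genotype. In ND1Sftpc-cre rats (ND1 cKO in the labels, ND1_cKO here), the Sftpc promoter, which is active in alveolar type 2 cells, drives Cre, and Cre activates the LSL-DdCBE-ND1 allele, a base editor aimed at the mitochondrial complex I gene ND1. Controls were ND1LSL littermates per the series description, which carry the editor allele without Cre, although their genotype is written as WT in the labels. Cre, the active editor and the ND1 edit differ together between the genotypes and cannot be told apart.

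p53 is a transcription factor that is kept at a low level by the ubiquitin ligase MDM2, itself a p53 target, and is stabilised by DNA damage and other stress. Among its targets, Cdkn1a encodes p21, which stops the cell cycle by inhibiting cyclin-dependent kinases (CDKs), and Bbc3 and Bax encode proteins that open the mitochondrial outer membrane in apoptosis. Lasting arrest with secretion of cytokines and proteases is called senescence, and p16 from Cdkn2a and p15 from Cdkn2b, which block CDK4 and CDK6, are used as its markers. In injured mouse lung, p53 targets are known from the transitional cells that lie between alveolar type 2 and type 1 cells.

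Libraries held 28669995 to 38303274 assigned counts. Levels are given below as normalised counts relative to library size (CPM), and a gene was said to rise or fall when its adjusted p was below 0.05 in edgeR's quasi-likelihood test over all 16548 genes tested. ND1 stood at 2433 to 3083 CPM in controls and 3427 to 3737 CPM in ND1_cKO, and it did not pass (adjusted p = 0.125). These counts report ND1 transcript and do not show the edit. Lung markers were abundant, with Sftpc at 12903 to 15473 CPM in controls and 5301 to 10376 CPM in ND1_cKO (adjusted p = 0.133). ND1_cKO replicate 3 stood apart on the summed level of 11 fibroblast markers, at 9078 CPM. The sum was 2946 and 5842 CPM in the other ND1_cKO libraries and 1906 to 2762 CPM in controls. Most of the 9078 CPM came from the collagen genes Col1a1, Col1a2 and Col3a1, at 2357, 1900 and 3727 CPM. Pdgfra, Tcf21 and Postn were highest in a control library, and the other markers on the list in ND1_cKO replicate 3. Values of the members without that library are given beside them.

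Of the 9 genes, Plk2 fell and none rose. Levels of Cdkn1a, Cdkn2a, Ccng1 and Bax were higher in every ND1_cKO library than in every control without passing the adjusted threshold, and those of Cdkn2b, Mdm2, Bbc3 and Zmat3 overlapped between the genotypes. The 1 gene lower compares with 1.28% of all tested genes called lower, and the 0 genes higher with 1.14% called higher. At an unadjusted p below 0.05, 4 of the 9 were higher (11.1% of all genes) and 1 was lower (10.2%). DESeq2 called 3 higher (Cdkn1a, Cdkn2a and Ccng1; 6.09% of all genes) and 1 lower (Plk2; 5.67%). Groups did not overlap for 4 genes higher and 1 gene lower, against 14.1% of all genes in each direction. The median log2 fold change of the 9 was 0.20, beside 0.01 over all genes. All 9 passed the filter on low counts, but Cdkn2a did so through the ND1_cKO libraries only, since 0 control libraries reached the 0.272 CPM that the filter requires in 3 libraries, so it could pass only by being higher there.

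**Figure D1:**
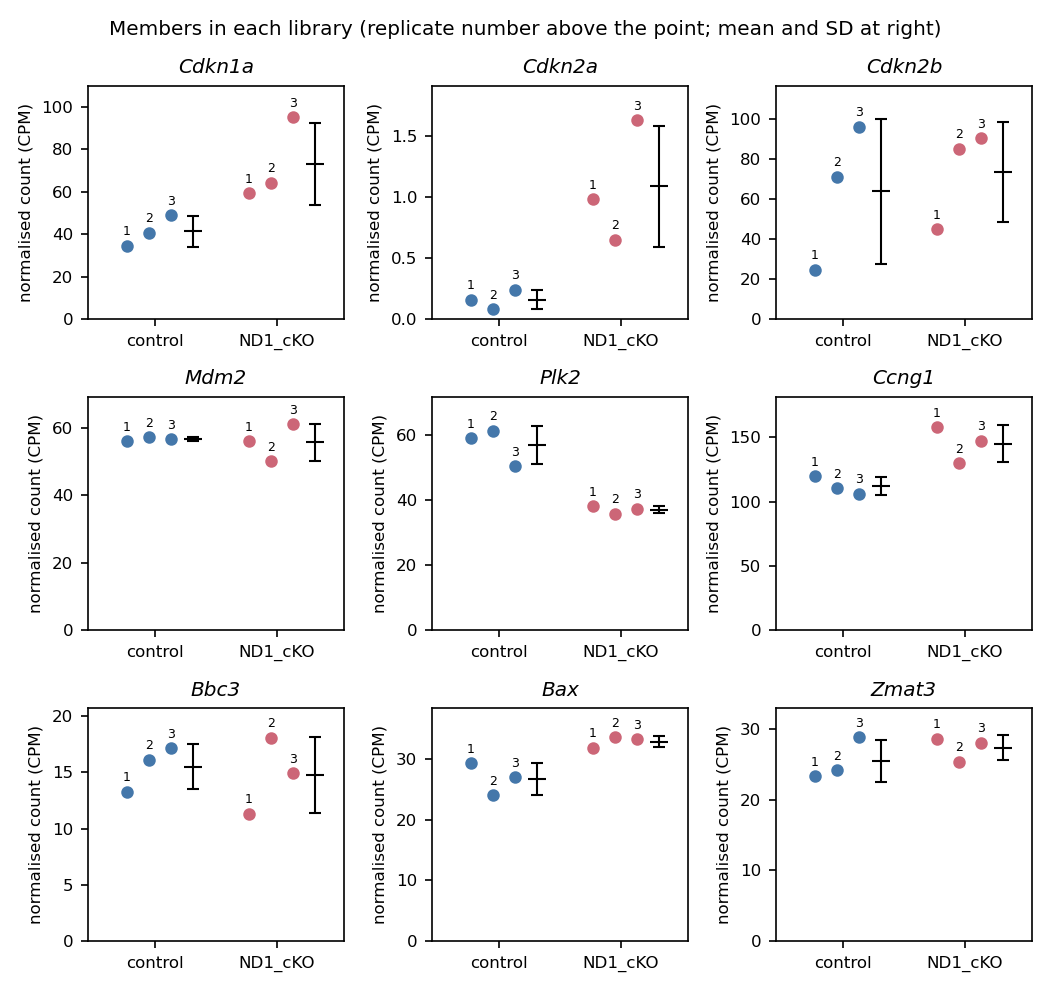
Normalised counts (CPM, linear axis from 0) of the 9 genes in each library, 3 control and 3 ND1_cKO rats, with the replicate number above each point and the mean and SD at the right of each group. Plk2 lies between 35.8 and 38.1 CPM in ND1_cKO, below all controls, while the Cdkn2b controls spread from 24.7 to 96.3 CPM.

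Plk2 encodes polo-like kinase 2, a p53-induced kinase with roles in centriole duplication and the cell's stress response. It gave 59.1, 61.5 and 50.5 CPM in control replicates 1, 2 and 3 and 38.1, 35.8 and 37.4 CPM in ND1_cKO replicates 1, 2 and 3. The 3 ND1_cKO libraries lay within a narrow band, 1.06-fold from lowest to highest, and the lowest control was above all of them. Plk2 fell 1.54-fold, from 57.0 ± 5.75 to 37.1 ± 1.18 CPM (SD, n = 3 rats per genotype; log2 fold change -0.62 ± 0.09 SE, edgeR adjusted p = 0.0311). The log2 fold change ranged from -0.70 to -0.56 over 14 alternative analyses, but the call was lost when most single libraries were left out. With control replicate 1, 2 or 3 left out the adjusted p of Plk2 was 0.0638, 0.145 and 0.0683, and with ND1_cKO replicate 1 or 2 left out it was 0.0795 and 0.0521. Without ND1_cKO replicate 3 it was 0.0355, at a log2 fold change of -0.63. The number of genes called over the whole table, 400 with all libraries, changed in these fits as well. It was 184, 0 and 9 without control replicate 1, 2 and 3. Without ND1_cKO replicate 1, 2 and 3 it was 23, 363 and 495. The 250 bases before the RefSeq start of Plk2 (GRCr8, chr2:43702286-43702535, plus strand) are shown because this is the gene that passed. Capitals mark TGACGTCA, the cyclic AMP response element, chosen after the sequence was read.
Plk2 upstream: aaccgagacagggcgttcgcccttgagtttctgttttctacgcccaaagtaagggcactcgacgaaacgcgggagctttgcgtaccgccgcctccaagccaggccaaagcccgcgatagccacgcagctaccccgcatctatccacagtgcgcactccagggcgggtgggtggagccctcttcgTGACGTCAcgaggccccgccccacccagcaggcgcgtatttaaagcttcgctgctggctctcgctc
This palindromic motif is in the windows of Plk2 and Cdkn2b among the 6 members with one in the RefSeq table, and in 1.83% of all 33469 windows, which run from 250 bases before to 50 after a listed start.

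Cdkn1a encodes p21, the CDK inhibitor through which p53 arrests the cell cycle. It gave 34.5, 40.8 and 49.0 CPM in control replicates 1, 2 and 3 and 59.4, 64.4 and 95.1 CPM in ND1_cKO replicates 1, 2 and 3. Every ND1_cKO library was above every control, and ND1_cKO replicate 3 was the highest by a wide margin. Cdkn1a stood at 41.4 ± 7.27 CPM in controls and 72.9 ± 19.3 CPM in ND1_cKO (SD, n = 3; 1.76-fold, log2 0.82 ± 0.21 SE). It did not pass with edgeR (adjusted p = 0.0888), whereas DESeq2 called it (adjusted p = 0.00397). Without ND1_cKO replicate 3 its log2 fold change was 0.57 (edgeR adjusted p = 0.0907), and with any library left out it was between 0.57 and 0.95 and did not pass.

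The Cdkn1a window was searched for paired cores of the p53 response element, that is 2 cores separated by 6 bases, each core a C, then A or T at both of the next positions, then a G. This pattern is its own reverse complement, so a search covers both strands. The part of the window before the first annotated base of Cdkn1a (GRCr8, chr20:7150682-7150819, plus strand) is shown because it holds such a pair, with the cores in capitals.
Cdkn1a upstream: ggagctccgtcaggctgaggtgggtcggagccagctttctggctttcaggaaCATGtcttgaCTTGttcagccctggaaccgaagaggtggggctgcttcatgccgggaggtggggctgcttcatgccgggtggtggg
Cdkn1a element: gaaCATGtcttgaCTTGttc
The element of 20 bases lies at chr20:7150731-7150750 and begins 201 bases before the listed start. It departs from the p53 consensus at 1 base outside the cores. Core pairs were in 1 of the 6 member windows, that of Cdkn1a, and in 8.05% of all windows. Elements with at most 2 such departures were in 0.224% of all windows. These matches describe the sequence and do not show binding. Sequences are from RefSeq, build GRCr8, and the build behind the counts is not given in the sources used here.

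Cdkn2a encodes both p16Ink4a, an inhibitor of CDK4 and CDK6, and p19Arf, which restrains MDM2, and the table gives the gene a single row, so the transcripts cannot be separated. Only 6, 3 and 7 reads were counted in control replicates 1, 2 and 3, against 36, 24 and 58 reads in ND1_cKO replicates 1, 2 and 3. In normalised counts these were 0.157, 0.0810 and 0.241 CPM and 0.981, 0.652 and 1.63 CPM. The groups did not overlap, and the lowest ND1_cKO library had more than the highest control. Cdkn2a had the largest difference of the 9 genes, 6.82-fold (log2 2.77 ± 0.56 SE, n = 3), and did not pass with edgeR (adjusted p = 0.0533). The other tests placed Cdkn2a on either side of the threshold, with DESeq2 at adjusted p = 0.00173, limma-voom with library quality weights at 0.0412, edgeR without a filter at 0.0452 and limma-voom at 0.0667. With a library left out, the log2 fold change of Cdkn2a was between 2.36 and 3.15 and did not pass, and the 2.36 is the value without ND1_cKO replicate 3 (edgeR adjusted p = 0.0797). Control counts this low limit the precision of the fold.

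Cdkn2b encodes p15Ink4b, a CDK4 and CDK6 inhibitor known as a target of TGF-beta signalling. It gave 24.7, 71.4 and 96.3 CPM in control replicates 1, 2 and 3 and 45.0, 85.5 and 90.5 CPM in ND1_cKO replicates 1, 2 and 3. The controls alone spanned 3.90-fold and enclosed the whole ND1_cKO range. The log2 fold change was 0.20 ± 0.52 SE (adjusted p = 0.857), and it was -0.19 without control replicate 1 and -0.031 in limma-voom with library quality weights, so no direction can be given. Cdkn2b was lowest in replicate 1 of each genotype, whereas Cdkn2a divided by genotype, and the difference between the 2 genes was not tested.

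Ccng1 encodes cyclin G1, a p53 target that acts with a phosphatase on MDM2. It gave 120 CPM in control replicate 1, 110 in replicate 2 and 106 in replicate 3, against 158, 130 and 147 CPM in ND1_cKO replicates 1, 2 and 3. The genotypes were separate but close, with ND1_cKO replicate 2 nearest to the controls. Ccng1 was at 112 ± 6.96 CPM in controls and 145.0 ± 14.2 CPM in ND1_cKO (SD, n = 3; log2 0.37 ± 0.10 SE, edgeR adjusted p = 0.0876), and DESeq2 called it (adjusted p = 0.0163). Mdm2, whose product degrades p53, gave 56.1, 57.2 and 56.7 CPM in control replicates 1, 2 and 3 and 56.0, 50.1 and 61.1 CPM in ND1_cKO replicates 1, 2 and 3. The controls differed by 1.02-fold at most, and the ND1_cKO libraries lay on both sides of them. Its log2 fold change was -0.02 ± 0.09 SE (edgeR adjusted p = 0.901). Leaving out ND1_cKO replicate 2 gave 0.035 for Mdm2 (adjusted p = 0.868), and leaving out replicate 3 gave -0.10 (adjusted p = 0.6).

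The cell death genes gave small differences. Bax, which encodes a pore-forming BCL2 family protein, was at 29.3, 24.0 and 27.1 CPM in control replicates 1, 2 and 3 and 31.9, 33.6 and 33.3 CPM in ND1_cKO replicates 1, 2 and 3. All ND1_cKO libraries were above the controls, by little in the case of control replicate 1. The difference was 1.23-fold (log2 0.30 ± 0.10 SE, n = 3, edgeR adjusted p = 0.144; DESeq2 adjusted p = 0.101). Bbc3, which encodes the BH3-only protein PUMA, was at 13.3, 16.1 and 17.1 CPM in controls and 11.3, 18.1 and 14.9 CPM in ND1_cKO, so that ND1_cKO held both the lowest and the highest library. Its log2 fold change was -0.07 ± 0.19 SE (edgeR adjusted p = 0.864), and it turned positive without control replicate 3 (0.006) or ND1_cKO replicate 1 (0.08). Zmat3, a p53 target that regulates splicing, was at 23.4, 24.2 and 28.9 CPM in controls and 28.7, 25.4 and 28.1 CPM in ND1_cKO. The groups of Zmat3 overlapped (log2 0.10 ± 0.11 SE, edgeR adjusted p = 0.636). Without ND1_cKO replicate 3 the log2 fold changes of Bax, Bbc3 and Zmat3 were 0.28, -0.08 and 0.08, and those of Ccng1 and Cdkn2b were 0.36 and 0.02.

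**Figure D2:**
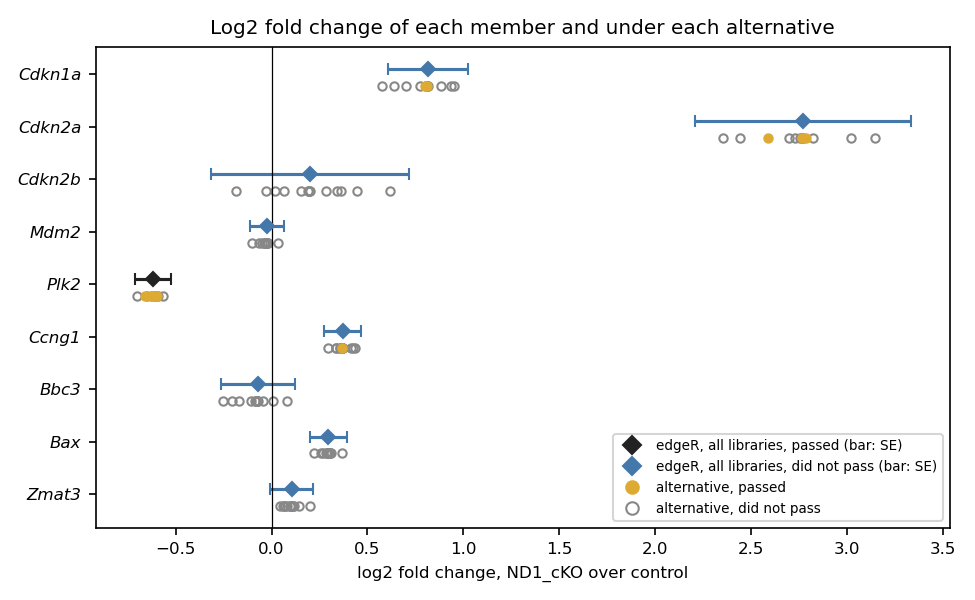
Log2 fold change (ND1_cKO over control) of each of the 9 genes in the edgeR fit on all 6 libraries (diamonds with SE bars, black where the gene passed) and under each alternative analysis (circles, filled where it passed). Plk2 stays between -0.70 and -0.56 and Cdkn2a between 2.36 and 3.15, while Cdkn2b, Mdm2 and Bbc3 lie on both sides of 0.

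Of 15 genes for relatives and regulators of p53, 0 passed with edgeR or DESeq2, with a median log2 fold change of -0.0053. At an unadjusted p below 0.05, 0 were higher and 0 lower (11.1% and 10.2% of all genes). The lowest p-values among them were those of the checkpoint kinase gene Chek2 (0.38 ± 0.19, adjusted p = 0.306) and of Ppm1d, a phosphatase gene that p53 induces and that acts against it (-0.24 ± 0.12, adjusted p = 0.309).

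Of 34 other p53 target genes tested, 1 rose and 0 fell (1.14% and 1.28% of all genes). Log2 fold changes were positive for 24 of them, with a median of 0.07. At an unadjusted p below 0.05, 10 were higher and 3 lower (11.1% and 10.2% of all genes), and the groups did not overlap for 10 higher and 4 lower (14.1% of all genes in each direction). Rps27l, a ribosomal protein S27-like gene, rose from 42.2 ± 3.40 to 61.8 ± 6.83 CPM (SD, n = 3; log2 0.55 ± 0.11 SE, edgeR adjusted p = 0.0499). Reads of Rps27l may be shared with the related Rps27. That call was at the threshold and was lost with any library left out (adjusted p between 0.0624 and 0.177) and with limma-voom (0.0531). Next by p were the phosphatase gene Ptp4a1 (0.50 ± 0.10, adjusted p = 0.0522) and the exonuclease gene Aen (0.62 ± 0.13, adjusted p = 0.0586), which had no overlap between genotypes. DESeq2 called 6 of the list higher and 2 lower (6.09% and 5.67% of all genes). Among 5 further genes listed as CDK inhibitors 0 passed with edgeR. At an unadjusted p below 0.05, 2 were higher and 1 lower (11.1% and 10.2% of all genes). Cdkn2c, for p18Ink4c, was at 0.58 ± 0.16 (adjusted p = 0.0963; called by DESeq2 at 0.0213), and Cdkn1b, for p27Kip1, was at -0.36 ± 0.11 (adjusted p = 0.126).

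Cell cycle genes, among them the cyclins and CDKs on whose proteins the CDK inhibitors act, did not pass with edgeR either. Of 22 cyclins, CDKs, RB family and E2F genes, with 4 proliferation markers included, 0 passed. At an unadjusted p below 0.05, 9 were higher and 0 lower (11.1% and 10.2% of all genes). Cdk1, the mitotic kinase gene, gave 9.73, 4.59 and 5.85 CPM in control replicates 1, 2 and 3 and 19.7, 20.4 and 11.2 CPM in ND1_cKO replicates 1, 2 and 3 (log2 1.35 ± 0.34 SE, adjusted p = 0.0874). Cdk4, a kinase that p16 and p15 inhibit, was at 0.40 ± 0.11 (adjusted p = 0.0992). DESeq2 called 7 of this list, all higher (6.09% of all genes). In these whole-lung libraries, therefore, transcripts of Cdkn1a and of Cdk1 were both higher in every ND1_cKO library than in every control, with Cdkn1a highest in ND1_cKO replicate 3 and Cdk1 lowest there among the ND1_cKO libraries. Of 17 tested BCL2 family and caspase genes 0 passed with edgeR or DESeq2. At an unadjusted p below 0.05, 1 was higher and 0 lower (11.1% and 10.2% of all genes). Bcl2l1, for the survival protein BCL-XL, was at 0.42 ± 0.13 (adjusted p = 0.131), and Bcl2l2, for its relative BCL-W, at -0.18 ± 0.095 (adjusted p = 0.322).

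Of 32 tested genes for secreted factors of senescent cells, 3 rose and 0 fell (1.14% and 1.28% of all genes). Their median log2 fold change was 0.36. At an unadjusted p below 0.05, 12 were higher and 1 lower (11.1% and 10.2% of all genes). The EGF receptor ligand gene Areg gave 4.25, 2.40 and 2.51 CPM in control replicates 1, 2 and 3 and 18.2, 12.4 and 28.3 CPM in ND1_cKO replicates 1, 2 and 3 (log2 2.68 ± 0.37 SE, edgeR adjusted p = 0.0295). Ereg, for the related ligand epiregulin, rose by 2.25 ± 0.39 (adjusted p = 0.0392), and Plaur, for the urokinase receptor, by 1.13 ± 0.21 (adjusted p = 0.0438). Spp1, for osteopontin and also on the macrophage marker list (3.76 ± 0.69, adjusted p = 0.0526), and Serpine2, for a protease inhibitor (2.06 ± 0.44, adjusted p = 0.0678), did not pass with edgeR. DESeq2 called 9 of the list higher and 1 lower (6.09% and 5.67% of all genes). The count of 3 was 0 without control replicate 2, control replicate 3 or ND1_cKO replicate 1. In those fits 0, 9 and 23 genes passed over the whole table, against 400 with all libraries. With limma-voom, Areg (adjusted p = 0.0513) and Plaur (0.0591) did not pass. With the replicate block in edgeR, Ereg (adjusted p = 0.0503) and Plaur (0.0741) did not. The cytokine gene Il6, named after its values were seen, was below the filter, at 0.0810 to 0.157 CPM in controls and 0.245 to 1.49 CPM in ND1_cKO.

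Among 18 tested genes, mostly of the lamina, chromatin and lysosome, used as senescence markers or acting on the Cdkn2a locus, 0 rose and 2 fell. Over all genes, 1.14% rose and 1.28% fell. At an unadjusted p below 0.05, 4 were higher and 4 lower (11.1% and 10.2% of all genes). DESeq2 called 0 higher and 3 lower (6.09% and 5.67% of all genes). Cbx7, a Polycomb subunit known to repress Cdkn2a in mouse and human cells, gave 56.1, 75.3 and 78.1 CPM in control replicates 1, 2 and 3 and 39.7, 44.2 and 42.9 CPM in ND1_cKO replicates 1, 2 and 3, without overlap. It fell by 0.72 ± 0.13 on the log2 scale (edgeR adjusted p = 0.0435). Ets1, a transcription factor gene known to activate CDKN2A in human cells and also expressed in endothelium, gave 473, 524 and 487 CPM in control replicates 1, 2 and 3 and 352, 377 and 335 CPM in ND1_cKO replicates 1, 2 and 3, and fell by 0.48 ± 0.09 (edgeR adjusted p = 0.0449). The related Ets2 was at -0.36 ± 0.09 (adjusted p = 0.0765), and Glb1, for the lysosomal beta-galactosidase used to stain senescent cells, at 0.34 ± 0.12 (adjusted p = 0.151). The call of Cbx7 held when control replicate 1 was left out (adjusted p = 0.036) and was lost when any other library was (0.0564 to 0.169), and that of Ets1 was lost with each library left out (0.0557 to 0.164).

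**Figure D3:**
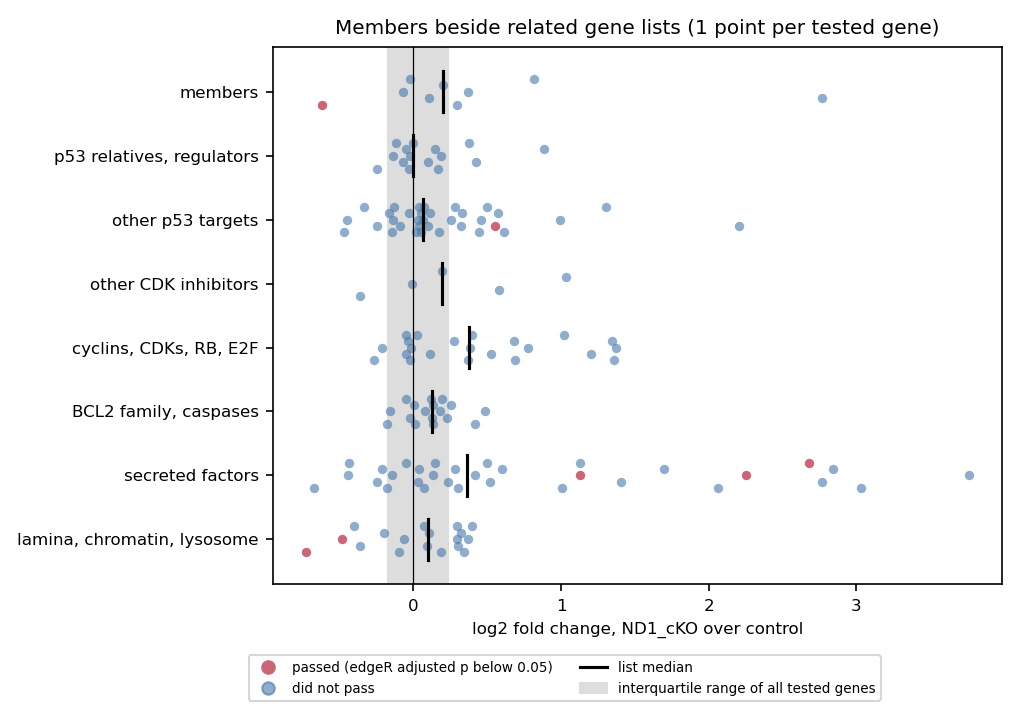
Log2 fold change (ND1_cKO over control) of every tested gene of the members and of the 7 related lists, 1 point per gene, red where the gene passed, with the list median as a black bar and the interquartile range of all tested genes in grey. The members' median is 0.20, and the passing genes are Plk2, Rps27l, Areg, Ereg, Plaur, Cbx7 and Ets1.

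Likeness of pattern over the 6 libraries was measured as the root mean square difference of log2 CPM, each gene centred on its own mean, among 143 tested genes of the related lists. Closest to Plk2, whose own deviation was 0.32, were the death receptor gene Fas (0.11), Ets1 (0.13) and the DNA repair gene Ercc5 (0.13). Fas (log2 -0.45 ± 0.14, adjusted p = 0.135) and Ercc5 (-0.47 ± 0.14, adjusted p = 0.11) were lower in every ND1_cKO library than in every control and did not pass. Closest to Cdkn2a, whose own deviation was 1.29, were Areg (0.40), the metalloproteinase inhibitor gene Timp1 (0.45) and Sfn, the gene of the epithelial p53 target 14-3-3 sigma (0.51). Sfn gave 3.04, 1.97 and 2.62 CPM in control replicates 1, 2 and 3 and 6.38, 5.11 and 23.8 CPM in ND1_cKO replicates 1, 2 and 3, so that ND1_cKO replicate 3 was the highest, as for Cdkn2a and Cdkn1a. Sfn did not pass with edgeR (log2 2.21 ± 0.63 SE, adjusted p = 0.114).

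Markers of several cell types moved with genotype in the same libraries, and all markers found in the table had counts. The marker lists were chosen with earlier results of these data known. Over all genes, edgeR called 1.14% higher and 1.28% lower. At an unadjusted p below 0.05 the shares were 11.1% and 10.2%, and with DESeq2 they were 6.09% and 5.67%. Of 12 transitional cell markers 8 rose and 0 fell, and their summed level was 1177 to 1359 CPM in controls and 2129 to 2372 CPM in ND1_cKO. Areg and Plaur are on that list and on the secreted factor list, and Spp1 is on the macrophage and the secreted factor lists. Of 12 endothelial markers 5 fell and 0 rose, with sums of 5215 to 5698 CPM in controls and 3462 to 3617 CPM in ND1_cKO. For 10 type 1 markers, 1 of which fell, the sums were 7371 to 9303 CPM in controls and 4454 to 7342 CPM in ND1_cKO (5 lower and 0 higher at an unadjusted p below 0.05, and 5 lower with DESeq2). For 11 type 2 markers, 1 of which rose, they were 29480 to 33950 CPM and 22210 to 35360 CPM (3 higher and 3 lower at an unadjusted p below 0.05, and 3 higher and 2 lower with DESeq2). Macrophage markers summed to 1251 to 2249 CPM in controls and 2661 to 3032 CPM in ND1_cKO, with 0 of 10 tested passing (3 higher at an unadjusted p below 0.05, and 2 higher with DESeq2). Without Gpnmb and Spp1, left out after their values were seen, the macrophage sums overlapped. They were 871 to 1392 CPM in controls and 1092 to 1450 CPM in ND1_cKO. Levels of Mrc1, Csf1r, Adgre1 and Lpl overlapped as well. Trem2, still in those sums, did not overlap, at 5.47 to 30.1 CPM in controls and 49.5 to 64.6 CPM in ND1_cKO. It did not pass with edgeR (adjusted p = 0.153). Of 11 fibroblast markers 0 passed (6 higher at an unadjusted p below 0.05, and 5 higher with DESeq2). Of 11 lymphocyte markers 0 passed (9 lower and 1 higher at an unadjusted p below 0.05, and 7 lower with DESeq2), and their sums overlapped, at 309.8 to 367 CPM in controls and 254 to 328 CPM in ND1_cKO. Without Cd4, the 1 marker with a positive fold change, again left out after its values were seen, the lymphocyte sums were 195 to 224 CPM in controls and 82.6 to 153 CPM in ND1_cKO and did not overlap. Airway markers overlapped at 5966 to 7128 CPM and 6774 to 8390 CPM (0 of 8 tested passed, 3 were higher at an unadjusted p below 0.05, and 0 passed with DESeq2). Skeletal and cardiac muscle markers, 1 of 7 of which rose, overlapped at 20.0 to 119 CPM and 116 to 259 CPM. The marker that rose was Acta1, for skeletal muscle actin, at 0.688 to 2.33 CPM in controls and 77.9 to 237 CPM in ND1_cKO (edgeR adjusted p = 0.0162). Fold changes were negative for 5 of the 7, and without Acta1, left out after its values were seen, the muscle sums were 19.3 to 117 CPM in controls and 18.5 to 38.0 CPM in ND1_cKO. The transitional count of 8 and the endothelial count of 5 each became 3 when control replicate 1 was left out. Each became 0 when control replicate 2, control replicate 3 or ND1_cKO replicate 1 was. Over the whole table, 400 genes passed with all libraries and 184 without control replicate 1. Without control replicate 2, control replicate 3 or ND1_cKO replicate 1, 0, 9 and 23 did. In whole lung, fewer cells of a type and less RNA per cell cannot be told apart, and the part of these cell types in the levels of Plk2, Cdkn1a, Cdkn2a or the other genes was not tested.

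**Figure D4:**
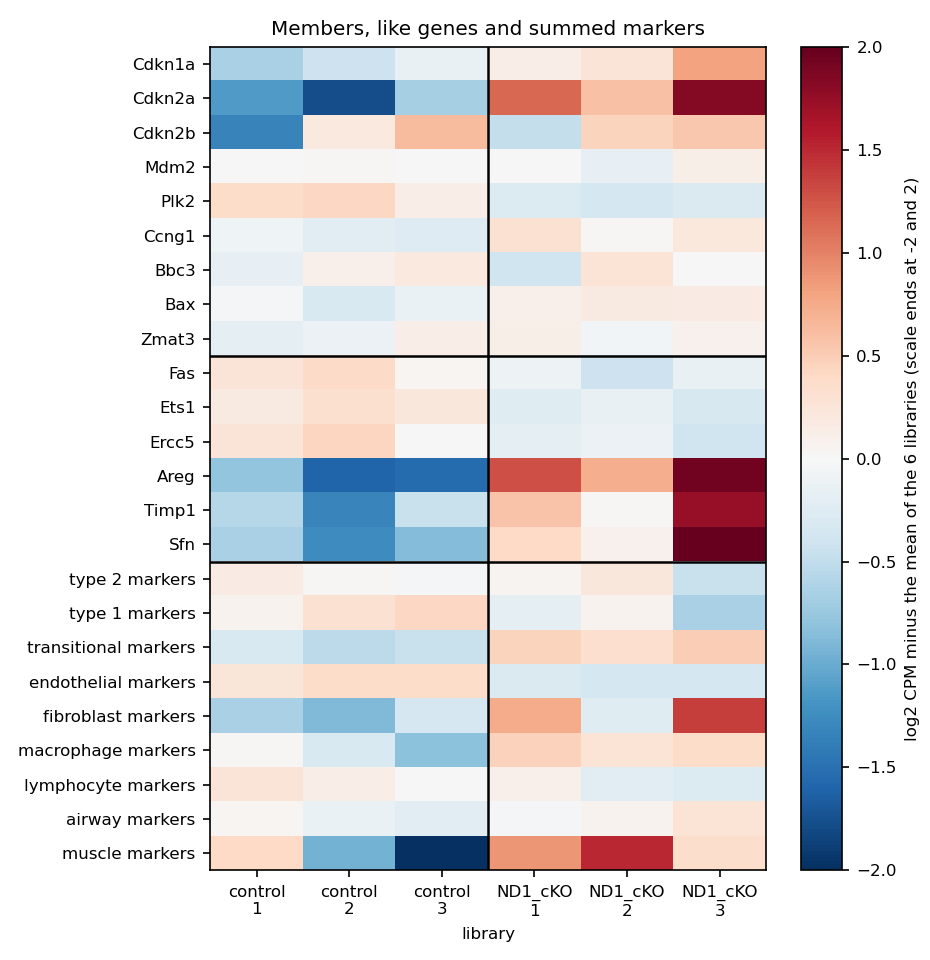
Log2 CPM minus the mean of the 6 libraries (colour, scale from -2 to 2) for the 9 members, the 3 genes most like Plk2 (Fas, Ets1, Ercc5) and most like Cdkn2a (Areg, Timp1, Sfn), and the summed markers of 9 cell types, with libraries in columns. Plk2 and the endothelial markers are lower, and Cdkn1a, Cdkn2a and the transitional markers higher, in all 3 ND1_cKO libraries, while Cdkn2b follows no genotype.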

How the data were processed

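Whole-lung RNA of 6 rats was measured, 3 control and 3 ND1_cKO, which the series description counts as separate animals. The authors deposited raw read counts, as whole numbers, for each gene symbol and library. Columns were matched to samples by the names in the labels, and 0 columns were left over. The tools named in the submitters' processing notes are HTSeq, HISAT2, fastp, R 4.3.3 and DESeq2, without their roles. Build, annotation and strand setting: not given in the sources used here, so reads of overlapping or near-identical genes may be shared.

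Counts were tested with edgeR 4.0.16 by its quasi-likelihood test (two-sided, robust, TMM, filterByExpr, genotype as the only factor) in R 4.3.3, with Benjamini-Hochberg adjustment over all 16548 genes. Normalised counts are CPM with TMM factors. The SE was taken as the size of the log2 fold change divided by the root of the F statistic. DESeq2 1.42.0 and limma 3.58.1 were alternatives, as were other scalings, filters, a replicate block and leaving out each library. With 3 rats per genotype the biological coefficient of variation was 0.22.

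The members and the 7 related and 9 cell type lists were chosen with earlier results of these data known. Of 257 list entries 255 were found. Some genes on these lists are not reported here and are left out of their counts. From each related list, every gene called and the 2 next by p were named, as were the 3 genes most like each of the 2 members with the lowest p. The edgeR, DESeq2 and limma-voom fits, with the main filter and all 6 libraries, were tested on simulated data. The other alternatives were not.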

Additional observations from a re-analysis of the deposited data

How the results depend on the processing

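The number of genes called over the whole table was 400. It was 1908 with DESeq2, 950 with limma-voom and library quality weights and 262 with the replicate block, and between 0 and 495 with a library left out. Of the 9 members, 0 were called higher, against 1 without a filter (Cdkn2a), 3 with DESeq2, 1 with library quality weights (Cdkn2a) and 1 with the replicate block (Cdkn1a, adjusted p = 0.0377). The 1 member called lower, Plk2, was 0 with the replicate block (adjusted p = 0.0528) and between 0 and 1 with a library left out. Same-numbered libraries of the 2 genotypes had deviations that correlated at 0.165, 0.0235 and 0.135. Differently numbered libraries were lower, at -0.15 to 0.0139. The labels do not say that the numbers pair the rats, so the main fit had no block, and these correlations do not settle it. A call lost or gained under the block is not read as a weaker or stronger effect. Log2 fold changes changed sign for Cdkn2b (-0.031 with library quality weights, and -0.19 to 0.62 with a library left out), Bbc3 (-0.26 to 0.080) and Mdm2 (-0.10 to 0.035), and for 0 other named genes in these alternatives. Over all alternatives the members kept direction and side of the threshold in 108 comparisons, lost the call in 6 (Plk2) and gained one in 6, and the other named genes did so in 275, 35 and 26. The cause of these changes was not tested. The 1 CPM minimum left Cdkn2a untested, whose 3 to 7 control reads limit its precision.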
